A study of Mus musculus with 12 samples.

Results

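The transcripts described here belong to 8 genes of type 2 immune signalling, measured by RNA-seq in mouse bone marrow cells that matured in culture with or without indole-3-propionic acid (IPA), a tryptophan metabolite made by gut bacteria. They are the chemokines *Ccl24*, *Ccl11*, *Ccl17* and *Ccl22*, the cytokine *Il33*, the receptor chains *Il1rl1* and *Il13ra1*, and the receptor antagonist *Il1rn*, taken by symbol from the 54532 genes of the count table. The members were chosen on these same libraries, with earlier results known that included rises of *Ccl24* and *Il33* at 10 µM IPA. Which comparisons entered the choice of each gene is not recorded, so all 3 are treated as used and the levels are given as a description, without p-values. All 12 libraries came from wild-type C57BL/6 bone marrow cells cultured with GM-CSF and IL-6 and harvested on day 5, 4 with vehicle (0.1% DMSO), 4 with 10 µM IPA and 4 with 50 µM IPA. The cytokines were in the medium of every group, so vehicle stands for cells already driven towards the myeloid lineage, and no group was left without them. The cells were not sorted before RNA extraction. For cultures of this kind, the paper reports slightly reduced cell viability at the higher IPA dose and no such effect at the lower dose. The paper centred its own expression analysis on the lower dose for that reason. The part of reduced viability in the levels at the higher dose was not tested here.

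Type 2 immunity is the branch of the immune system that acts against helminths and in allergy, and its tissue signals are largely made by macrophages, dendritic cells and epithelium. CCL24 and CCL11 (eotaxin-2 and eotaxin-1) attract eosinophils through the receptor CCR3, while CCL17 and CCL22 attract CCR4-bearing T cells and are made abundantly by dendritic cells and by macrophages exposed to IL-4. IL-33 is a nuclear cytokine of the IL-1 family that acts after release from damaged cells through ST2, the product of *Il1rl1*, with IL1RAP as the shared second chain. IL13RA1 pairs with IL4RA to form the receptor through which myeloid cells sense IL-13, and the signal reaches STAT6. IL1RN occupies the IL-1 receptor without signalling.

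Of the 8 genes, 7 passed the filter of more than 0.5 CPM (reads of a gene scaled to a common library size) in at least 2 libraries, as did 14894 genes in all, and each of the 7 exceeded that level in every library. *Ccl11* had 0 counts in all 12 libraries, which allowed a level of up to 0.107 to 0.147 CPM in a single library, taken as 3 counts. Library totals lay between 20451312 and 28038612 counts. Levels are CPM scaled by edgeR's trimmed mean of M-values, and differences between groups are log2 fold changes of edgeR's quasi-likelihood fit with their standard error (SE).

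The genes lie at separate loci of GRCm38, except for the pair of CCR4 ligands. *Ccl22* (ENSMUSG00000031779, chr8:94745590-94751699, plus strand) ends 58.8 kb before *Ccl17* (ENSMUSG00000031780, chr8:94810453-94812036, plus strand), with *Cx3cl1* between them. *Ccl24* (ENSMUSG00000004814) is on the minus strand at chr5:135569937-135573049, *Ccl11* (ENSMUSG00000020676) at chr11:82057823-82062955, *Il33* (ENSMUSG00000024810) at chr19:29925114-29960718, *Il1rl1* (ENSMUSG00000026069) at chr1:40429570-40465415, *Il13ra1* (ENSMUSG00000017057) at chrX:36112110-36171259 and *Il1rn* (ENSMUSG00000026981) at chr2:24336853-24351494. All 8 are protein coding, and no other annotated gene overlaps them. RefSeq promoter windows on GRCm38.p6, from 250 bases before to 50 bases after a gene start, were at hand for 6 of the 8 genes (10 windows) and not for *Ccl24* and *Ccl11*.

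Windows of *Ccl17* and *Ccl22*, whose levels moved in the same direction at 50 µM, and of the upstream start of *Il33*, whose levels followed another order, are shown 5′ to 3′ for comparison. Capitals mark the letters TTC and GAA separated by 3 or 4 bases of any kind, the palindromic form bound by STAT factors, with the spacing of 4 being that of STAT6.
Ccl17, chr8:94810203-94810502, plus strand: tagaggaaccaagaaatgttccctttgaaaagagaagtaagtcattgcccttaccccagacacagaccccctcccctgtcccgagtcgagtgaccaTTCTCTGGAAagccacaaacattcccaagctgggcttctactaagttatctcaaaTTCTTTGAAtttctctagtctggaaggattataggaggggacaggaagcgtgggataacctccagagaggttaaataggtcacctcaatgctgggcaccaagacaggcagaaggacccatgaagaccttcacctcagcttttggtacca
Ccl22, chr8:94745434-94745733, plus strand: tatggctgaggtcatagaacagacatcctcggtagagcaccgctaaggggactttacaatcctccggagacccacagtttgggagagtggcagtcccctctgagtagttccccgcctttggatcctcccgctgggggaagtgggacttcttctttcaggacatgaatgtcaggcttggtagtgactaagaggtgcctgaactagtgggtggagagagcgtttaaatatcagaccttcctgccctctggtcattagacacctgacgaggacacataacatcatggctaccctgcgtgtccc
Il33, chr19:29924863-29925162, plus strand: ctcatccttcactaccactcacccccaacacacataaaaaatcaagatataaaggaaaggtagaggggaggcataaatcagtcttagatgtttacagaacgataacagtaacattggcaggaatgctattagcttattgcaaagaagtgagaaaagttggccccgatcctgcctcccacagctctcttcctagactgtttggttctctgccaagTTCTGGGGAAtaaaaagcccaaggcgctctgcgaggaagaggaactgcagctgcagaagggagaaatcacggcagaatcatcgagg
The *Ccl17* window held both spacings, the one of 4 at 154 to 145 bases and the one of 3 at 99 to 91 bases before the gene start. The *Il33* window held the spacing of 4 at 36 to 27 bases before the start, and the *Ccl22* window held neither. Among the other windows, 2 overlapping ones of *Il1rn* shared a single match with the spacing of 4, and the most upstream window of *Il1rn* had none. Those of *Il13ra1* and *Il1rl1* and the downstream start of *Il33* had none either. Of 32544 promoter windows of this length, 8.33% held the spacing of 3, 6.98% the spacing of 4 and 14.6% at least 1 of them. A match describes the letters of a window, and gene counts do not tell which start a transcript came from.

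The eosinophil attractant *Ccl24* had the largest fold differences of the 8 genes at 50 µM, and at 10 µM it was level with *Il33*. With vehicle its level was 1.55, 1.23, 1.17 and 1.31 CPM in replicates 1 to 4. At 10 µM IPA the 4 libraries gave 5.61, 5.62, 4.03 and 3.53 CPM. At 50 µM they gave 16.5, 19.2, 10.6 and 5.92 CPM. The groups did not overlap in any of the 3 comparisons, and replicate 4 was the lowest library of both IPA groups. Group means were 1.31 ± 0.170 CPM (SD, n = 4), 4.70 ± 1.08 (SD, n = 4) and 13.1 ± 5.95 (SD, n = 4), so the SD widened with the level. *Ccl24* was 3.56-fold higher at 10 µM than with vehicle (log2 1.83, SE 0.22) and 9.95-fold higher at 50 µM (log2 3.31, SE 0.32). Between the doses the difference was 1.48 on the log2 scale (SE 0.28). It rested on 26 to 41 counts per library with vehicle, 77 to 155 at 10 µM and 141 to 524 at 50 µM. With any 1 library left out, the log2 fold change stayed between 1.73 and 1.95 at 10 µM and between 3.06 and 3.56 at 50 µM.

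**Figure D1:**
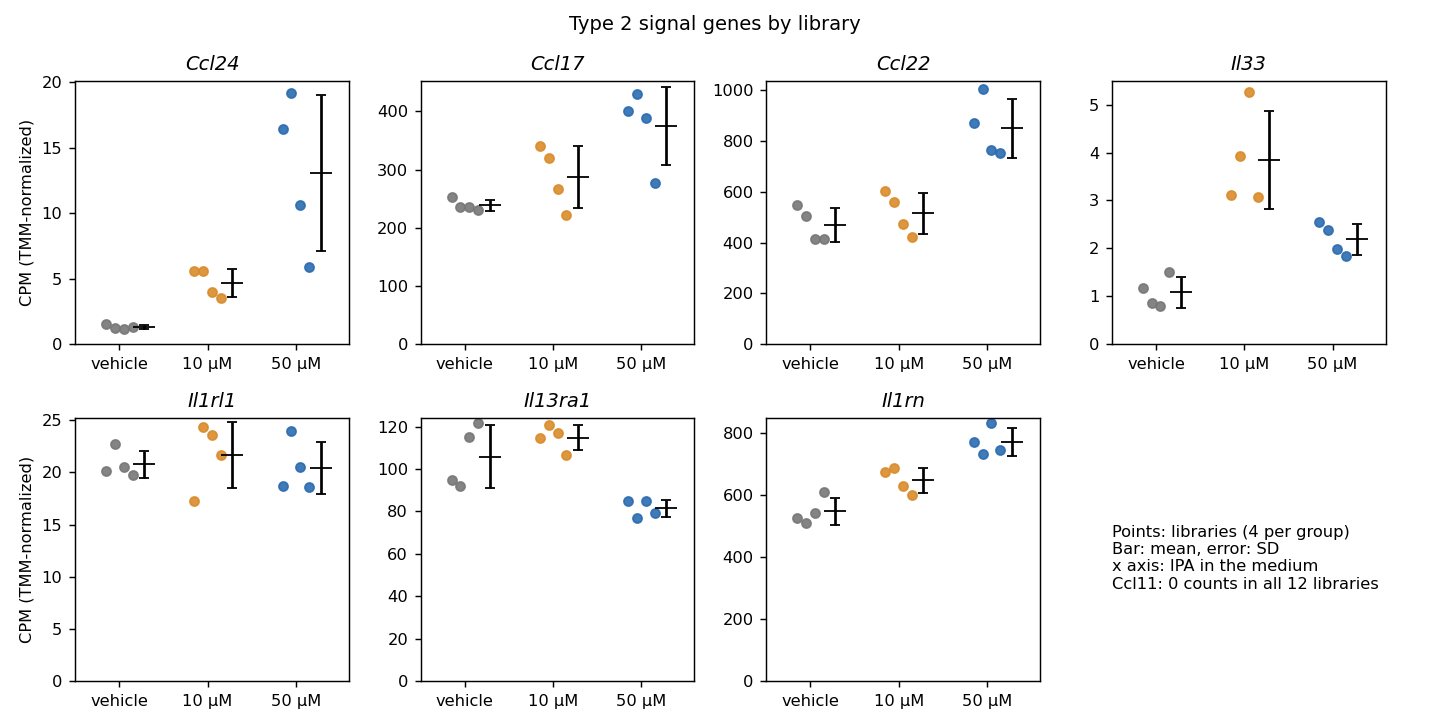
Level of each of the 7 detected genes in CPM (y axis, linear, from 0) by group (x axis); points are libraries, 4 per group, and bars give the mean and SD. *Ccl24* climbs from 1.31 to 4.70 to 13.1 CPM, *Il33* is highest at 10 µM (3.84 CPM), and *Il1rl1* stays near 21 CPM in every group.

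The CCR4 ligands *Ccl17* and *Ccl22* were abundant in every library. *Ccl17* was at 253, 236, 235 and 231 CPM with vehicle and at 340, 321, 267 and 223 CPM at 10 µM, and these groups overlapped. At 50 µM it reached 400, 431, 389 and 277 CPM, all above the vehicle libraries, while replicate 4 fell within the range at 10 µM. The log2 fold changes were 0.27 (SE 0.11) at 10 µM, 0.66 (SE 0.11) at 50 µM and 0.38 (SE 0.13) between the doses.

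*Ccl22* was at 547, 507, 415 and 415 CPM with vehicle and at 604, 559, 474 and 423 CPM at 10 µM. At 50 µM the libraries gave 873, 1007, 767 and 755 CPM, each above every library of the other groups. Its log2 fold change was 0.13 (SE 0.12) at 10 µM, where the groups overlapped, 0.86 (SE 0.11) at 50 µM and 0.73 (SE 0.11) between the doses. The chemokines shared an order of libraries within the IPA groups: for *Ccl24*, *Ccl17* and *Ccl22* alike, replicate 4 was the lowest at both doses and replicate 2 the highest at 50 µM. Per kilobase of exon, the ratio of *Ccl22* to *Ccl17* was 0.436 ± 0.0479 (SD, n = 4) with vehicle, 0.398 ± 0.0151 (SD, n = 4) at 10 µM and 0.509 ± 0.0707 (SD, n = 4) at 50 µM, and its range at 50 µM (0.435 to 0.603) overlapped that of vehicle (0.390 to 0.479).

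The alarmin *Il33* followed another order. Its level was 1.17, 0.854, 0.807 and 1.51 CPM with vehicle. At 10 µM it was 3.12, 3.92, 5.27 and 3.07 CPM, and at 50 µM it was 2.54, 2.38, 1.99 and 1.85 CPM. Every library at 50 µM lay above the vehicle libraries and below those at 10 µM, so the highest level was at the lower dose. The means were 1.09 ± 0.327 CPM (SD, n = 4), 3.84 ± 1.03 (SD, n = 4) and 2.19 ± 0.325 (SD, n = 4). The difference from vehicle was 1.82 on the log2 scale (SE 0.27) at 10 µM and 1.01 (SE 0.29) at 50 µM, and the difference between the doses was -0.81 (SE 0.23). These levels rested on 18 to 38 counts per library with vehicle, 67 to 140 at 10 µM and 41 to 65 at 50 µM.

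*Il1rl1*, the IL-33 receptor, showed no such pattern. It was at 20.2, 22.7, 20.5 and 19.8 CPM with vehicle, at 17.3, 24.4, 23.6 and 21.6 CPM at 10 µM, and at 18.7, 24.0, 20.5 and 18.6 CPM at 50 µM. All groups overlapped. The log2 fold changes of *Il1rl1* were 0.06 (SE 0.11), -0.01 (SE 0.10) and, between the doses, -0.08 (SE 0.12), and leaving out any 1 library kept them between -0.17 and 0.16.

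*Il13ra1*, the IL-13 receptor chain, was the member that was lower at 50 µM than in both other groups. Its level was 94.6, 92.1, 115.0 and 122.0 CPM with vehicle and 115, 121, 117 and 107 CPM at 10 µM. At 50 µM it was 85.0, 76.8, 85.0 and 79.1 CPM, below each of the other 8 libraries. The log2 fold change was 0.12 (SE 0.09) at 10 µM, with overlapping groups, -0.37 (SE 0.10) at 50 µM and -0.49 (SE 0.07) between the doses.

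*Il1rn*, the IL-1 receptor antagonist, was higher with dose. It was at 527, 511, 543 and 610 CPM with vehicle, at 676, 688, 630 and 601 CPM at 10 µM and at 774, 733, 834 and 748 CPM at 50 µM. The vehicle and 10 µM groups overlapped through replicate 4 of each, and the 50 µM libraries lay above both. Log2 fold changes of *Il1rn* were 0.24 (SE 0.07), 0.50 (SE 0.08) and, between the doses, 0.25 (SE 0.06). *Il1b* and *Il1a* encode ligands that IL1RN competes with. *Il1b* went the other way at 50 µM. *Il1a*, named after its values were seen, had means of 38.0 ± 12.4 CPM (SD, n = 4) with vehicle, 45.5 ± 6.74 (SD, n = 4) at 10 µM and 55.5 ± 6.63 (SD, n = 4) at 50 µM. All its groups overlapped, and it passed in no comparison. The ratio of *Il1rn* to *Il1b*, which leaves *Il1a* out, was taken per kilobase of exon. It was 0.751 ± 0.220 (SD, n = 4) with vehicle, 0.967 ± 0.147 (SD, n = 4) at 10 µM and 1.88 ± 0.178 (SD, n = 4) at 50 µM. The lowest ratio at 50 µM was 1.75 and the highest with vehicle 1.07.

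**Figure D2:**
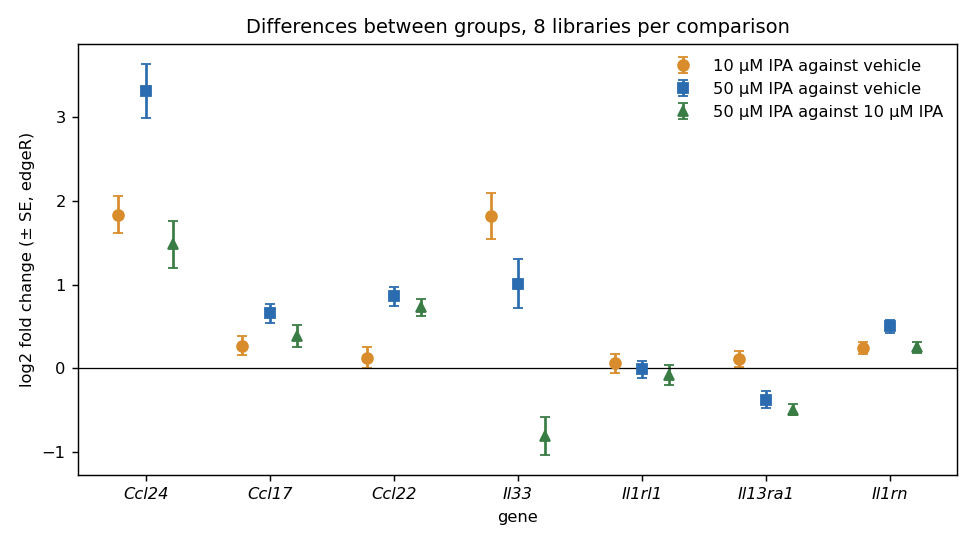
Log2 fold change (y axis) of the 7 tested genes (x axis) for the 3 comparisons, each fitted on its 8 libraries; error bars are SE. *Ccl24* is above 0 in every comparison, *Il33* is above 0 against vehicle at both doses and below 0 between the doses (-0.81), and *Il1rl1* lies at 0 within its error.

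At 10 µM against vehicle, 2 of the 7 tested genes, *Ccl24* and *Il33*, passed an adjusted p of 0.05, both higher, among 0.410% of all genes tested. The groups did not overlap for the same 2, against 6.13% of all genes. *Ccl24* no longer passed without replicate 2 of the 10 µM group, and *Il33* passed in 3 of 8 such reduced fits, not without replicate 1, 2 or 3 of vehicle or replicate 2 or 3 of the 10 µM group. At 50 µM against vehicle, 6 of the 7 passed, 5 higher and *Il13ra1* lower, against 13.5% of all genes, and for 6 the groups did not overlap, against 20.0%. *Il33* held there in 1 of 8 reduced fits (the one without replicate 4 of vehicle), *Il13ra1* in 5 (not without replicate 3 of vehicle or replicate 2 or 4 of the 50 µM group), and the other 4 in all 8. Between the doses 5 of the 7 passed, 3 higher and 2 lower at 50 µM, against 15.4% of all genes, and for 5 the groups did not overlap, against 20.3%. In that comparison *Il33* held in 4 of the 8 fits (not without replicate 2 or 3 of the 10 µM group or replicate 3 or 4 of the 50 µM group), and *Ccl17*, which did not pass, did so without replicate 1 of the 10 µM group or replicate 4 of the 50 µM group. Since the members were chosen from these libraries, nothing is read from these counts. The median log2 fold change of the 7 was 0.24 at 10 µM, 0.66 at 50 µM and 0.25 between the doses, beside medians of all tested genes of -0.01, 0.01 and 0.01. Both comparisons with vehicle use the same 4 vehicle libraries.

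Ordered by mean level per kilobase of exon, the 8 genes spanned a wide range, and the order changed at one place. With vehicle it ran from *Ccl17* (464 CPM per kb) through *Ccl22* (203), *Il1rn* (99.0), *Il13ra1* (28.5), *Il1rl1* (3.01), *Ccl24* (1.01) and *Il33* (0.376) to *Ccl11* (0), and the libraries of neighbours did not overlap. At 10 µM *Ccl24* (3.63) and *Il1rl1* (3.15) overlapped. At 50 µM *Ccl24* (10.1) stood above *Il1rl1* (2.97) in every library, and *Ccl17* (728), *Ccl22* (366), *Il1rn* (139.5), *Il13ra1* (21.9) and *Il33* (0.759) kept their places. In bulk RNA, a change in the number of cells that make a transcript and a change in the amount per cell cannot be told apart.

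A further 70 genes of the same pathways were listed from general knowledge in 7 groups, with earlier results of these data known, and 60 of them were tested. At 10 µM 6 of the 60 passed the adjusted p of 0.05, 5 higher and 1 lower, beside 0.410% of all genes tested. At 50 µM 25 of the 60 passed, 15 higher and 10 lower, beside 13.5% of all genes. Between the doses 30 of the 60 passed, 15 in each direction, beside 15.4% of all genes. In each comparison the share among the listed genes was thus above that of all genes, but the lists were written with results known. With calls in both directions, the medians over the 60 were 0.05, -0.05 and -0.05 on the log2 scale.

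Among the receptors of the chemokines, *Ccr3*, which binds CCL24, rose and *Ccr4*, which binds CCL17 and CCL22, did not pass against vehicle. *Ccr3* was at 0.530, 0.780, 0.941 and 0.716 CPM with vehicle, at 0.942, 1.5, 0.903 and 1.01 CPM at 10 µM and at 1.71, 2.64, 2.82 and 1.85 CPM at 50 µM. Vehicle and 10 µM overlapped, and all 50 µM libraries lay above both. Its log2 fold change at 50 µM was 1.61 (SE 0.31, adjusted p = 0.00412 from edgeR's test, higher in 4 of 4 libraries), and it passed whichever library was left out. *Ccr4* had means of 4.35 ± 0.182 (SD, n = 4), 3.50 ± 0.741 (SD, n = 4) and 5.50 ± 0.505 CPM (SD, n = 4), and its difference passed between the doses (0.65, SE 0.18, adjusted p = 0.0215), though not without replicate 3 of the 10 µM group or replicate 2 of the 50 µM group (adjusted p up to 0.0769). *Ccr8*, a chemokine receptor of type 2 T cells, and the scavenger receptor gene *Ackr2* were below the filter, with at most 3 and 16 counts in a library.

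In the chain that carries the IL-33 signal from ST2, none of 9 genes passed at 10 µM, and 1 rose and 2 fell at 50 µM (median -0.06). *Il1rap*, the chain that ST2 shares with the IL-1 receptor, fell from 78.5 ± 4.57 (SD, n = 4) to 56.8 ± 2.34 CPM (SD, n = 4), a log2 fold change of -0.46 (SE 0.07, adjusted p = 0.00112), and passed in all 8 fits without 1 library. The adaptor *Myd88* (-0.26, SE 0.07, adjusted p = 0.0348) and the kinase *Irak2* (0.30, SE 0.09, adjusted p = 0.0341) passed as well, but each lost its call without replicate 1 or 3 of vehicle or replicate 2, 3 or 4 of the 50 µM group (adjusted p up to 0.111 and 0.106).

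Other IL-1 family genes moved with *Il1rn* or against it. Of 10 tested, none passed at 10 µM, and at 50 µM 1 rose and 2 fell (median -0.30). *Il1b* was at 281, 306, 263 and 196 CPM with vehicle, at 203, 237, 274 and 223 CPM at 10 µM and at 149, 145, 155 and 120 CPM at 50 µM, where every library was below the other 8. Its log2 fold change at 50 µM was -0.87 (SE 0.12, adjusted p = 0.000448) and held without any 1 library. The decoy receptor *Il1r2* (-0.34, adjusted p = 0.0358) lost its call without replicate 3 of vehicle or replicate 1, 2 or 4 of the 50 µM group (adjusted p up to 0.116). *Il1f9*, the gene for IL-36γ (0.27, adjusted p = 0.0359), did so without replicate 1 or 3 of vehicle or any of the 50 µM libraries (up to 0.0961). Between the doses *Il1r1*, the signalling receptor of IL-1, was lower at 50 µM (-0.94, SE 0.21, adjusted p = 0.00627), as was the IL-36 receptor gene *Il1rl2* (-0.37, SE 0.07, adjusted p = 0.00145), which neighbours *Il1rl1*. The dose groups of *Il1r1* overlapped through replicate 1 of each, at 5.80 CPM at 10 µM and 6.35 CPM at 50 µM. *Il1r1* did not pass against vehicle at either dose.

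Of the genes that pass on the IL-4 and IL-13 signal, 9 of 11 were tested, and none passed at 10 µM. At 50 µM *Jak2* rose (0.30, SE 0.07, adjusted p = 0.0154), while *Il4ra* (-0.23, SE 0.06, adjusted p = 0.0277), *Jak3* (-0.34, SE 0.09, adjusted p = 0.0217) and the adaptor *Irs2* (-0.41, SE 0.11, adjusted p = 0.0240) fell, and the median was -0.07. *Il4ra*, the partner chain of IL13RA1, was at 291 to 299.7 CPM with vehicle, 316.5 to 327 CPM at 10 µM and 235 to 260 CPM at 50 µM, so like *Il13ra1* it was lowest at the higher dose. Against vehicle each of these 4 calls was lost without at least 1 library: *Jak2* without replicate 2 of the 50 µM group, *Il4ra* without replicate 1 or 3 of vehicle or 2, 3 or 4 of the 50 µM group, *Jak3* without replicate 3 of vehicle or 1, 2 or 3 of the 50 µM group, and *Irs2* without replicate 1, 2 or 3 of vehicle or 2 or 3 of the 50 µM group, with adjusted p up to 0.0845. Between the doses *Il4ra* fell by 0.37 on the log2 scale (SE 0.06, adjusted p = 0.000376) and passed in all 8 fits. *Stat6*, the factor at the end of this signal, stood at 263 CPM with vehicle, 280 CPM at 10 µM and 251 CPM at 50 µM and passed in no comparison; it was named after its values were seen.

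The cytokines of type 2 immunity themselves were scarce. *Il9*, *Il25* and *Il3* had 0 counts in all 12 libraries, *Il5* at most 6 and *Tslp* at most 11 counts in a library. On the list, 3 of the 8 were tested. *Il4*, named after its values were seen, had 6 to 32 counts per library and passed in no comparison. Its means were 0.690 ± 0.302 CPM (SD, n = 4) with vehicle, 0.642 ± 0.285 (SD, n = 4) at 10 µM and 0.826 ± 0.365 (SD, n = 4) at 50 µM. *Il13* was at 0.227, 0.223, 0.583 and 0.119 CPM with vehicle, at 0.217, 1.36, 0.941 and 0.412 CPM at 10 µM and at 1.27, 1.36, 0.388 and 0.966 CPM at 50 µM, that is 3 to 37 counts per library. The groups overlapped. Its difference at 50 µM (1.81, SE 0.55, adjusted p = 0.0461) passed in 2 of 8 reduced fits, those without replicate 3 of vehicle or replicate 3 of the 50 µM group. *Areg*, the gene of an epidermal growth factor receptor ligand made by type 2 lymphocytes and basophils, fell between the doses (-1.41, SE 0.42, adjusted p = 0.0330), a call that held only without replicate 1 of either IPA group and reached an adjusted p of 0.0931 in the other 6 fits.

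Receptors of other type 2 cytokines gave 2 rises among 7 tested genes at 50 µM (median 0.14) and none at 10 µM. *Il9r*, the IL-9 receptor, rose from 0.362 ± 0.115 (SD, n = 4) to 1.82 ± 0.643 CPM (SD, n = 4), a log2 fold change of 2.33 (SE 0.40, adjusted p = 0.00202), with all 4 libraries above those with vehicle and the call kept in all 8 fits. *Csf2rb*, the chain shared by the receptors of IL-3, IL-5 and GM-CSF, rose by 0.34 (SE 0.09, adjusted p = 0.0222), a call lost without replicate 3 of vehicle or replicate 1 or 2 of the 50 µM group (adjusted p up to 0.0908). *Il7r*, which also forms the TSLP receptor, fell between the doses by 0.64 on the log2 scale (SE 0.08, adjusted p = 4.74e-05).

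Of 20 tested genes that IL-4 induces in macrophages, *Ccl17*, *Ccl22* and *Ccl24* apart, 5 rose and 1 fell at 10 µM (median 0.24), and 8 rose and 3 fell at 50 µM (median 0.17). Between the doses 8 were higher and 5 lower at 50 µM (median 0.05). Several of these were known from the earlier analysis and are no independent support for the members. *Retnla*, a secreted protein and a hallmark of IL-4-exposed mouse macrophages, was at 0.318 to 0.743 CPM with vehicle, 3.11 to 6.49 CPM at 10 µM and 55.1 to 73.7 CPM at 50 µM, so the order of its groups was that of *Ccl24*. Its log2 fold change was 3.04 (SE 0.32, adjusted p = 0.00399) at 10 µM and 6.85 (SE 0.18, adjusted p = 1.18e-10) at 50 µM.

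The mannose receptor *Mrc1* reversed between the doses, with 153 ± 25.6 CPM (SD, n = 4) with vehicle, 235 ± 18.2 (SD, n = 4) at 10 µM and 94.0 ± 13.5 (SD, n = 4) at 50 µM. Its rise at 10 µM (0.62, SE 0.11, adjusted p = 0.0375) held only without replicate 3 or 4 of vehicle among the 8 fits, and its fall at 50 µM (-0.69, SE 0.12, adjusted p = 0.00232) held in all. The lectin *Clec10a* rose at both doses, by 0.48 at 10 µM (SE 0.09, adjusted p = 0.0394, kept only without replicate 4 of vehicle) and by 0.86 at 50 µM (SE 0.13, adjusted p = 0.000873). The lectin *Mgl2*, named after its values were seen, was at 276 to 308 CPM with vehicle, 350 to 396 CPM at 10 µM and 567 to 693 CPM at 50 µM, so its groups were apart at each step. It rose by 0.36 at 10 µM (SE 0.06, adjusted p = 0.0385, kept only without replicate 4 of vehicle) and by 1.12 at 50 µM (SE 0.08, adjusted p = 3.22e-06). *Clec10a* and *Mgl2* are close paralogs, and reads that both could give may make their separate counts uncertain, which was not tested. At 50 µM, *Alox15*, a lipoxygenase (1.29, SE 0.17, adjusted p = 0.000252), and *Fcer2a*, the low-affinity IgE receptor (1.51, SE 0.32, adjusted p = 0.00708), passed as rises, while *F13a1*, a coagulation factor chain of monocytes (-1.93, SE 0.36, adjusted p = 0.00357), fell. Summed B cell markers were also higher at 50 µM (49.6 ± 9.65 CPM, SD, n = 4) than with vehicle (22.8 ± 3.58, SD, n = 4). The part of B cells in *Fcer2a* was not tested. The gene that fell at 10 µM was *Chil3* (-0.33, adjusted p = 0.0394), a chitinase-like protein, named after its value was seen. That call held only without replicate 4 of vehicle (adjusted p up to 0.209 in the other 7 fits).

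**Figure D3:**
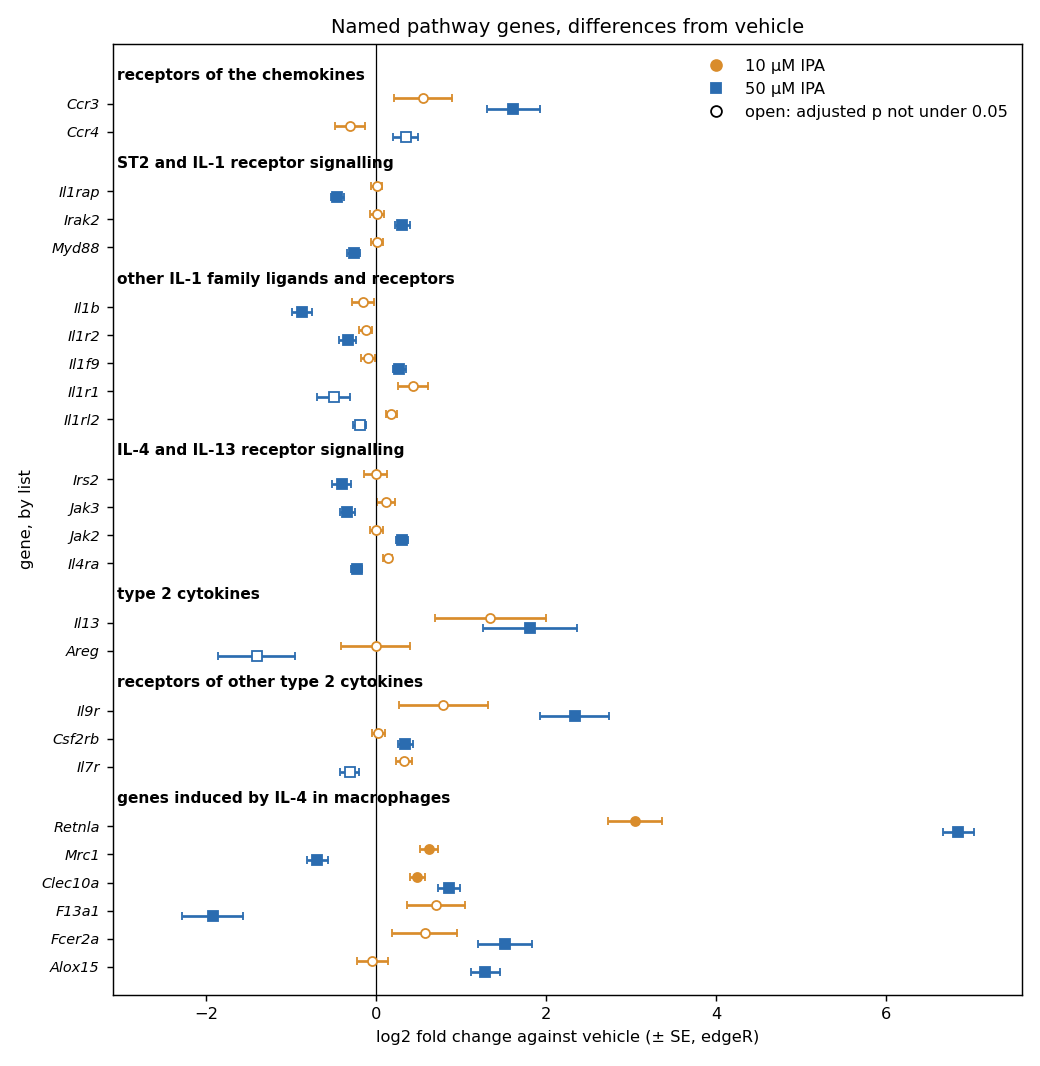
Log2 fold change against vehicle (x axis) of named pathway genes (y axis), grouped by list, at 10 µM (circles) and 50 µM (squares); error bars are SE, and open symbols did not pass an adjusted p of 0.05. At 10 µM the filled symbols are all in the list of genes induced by IL-4 (*Retnla*, *Mrc1*, *Clec10a*), while at 50 µM each list has at least 1.

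Markers of 8 cell types were summed per library to show what the cultures held. Myeloid markers were present throughout: the neutrophil list reached 10870 to 21960 CPM, with *S100a9* the most abundant, and the macrophage list was led by *Csf1r*, with all 8 of its markers detected. The macrophage sum was 1594 to 1761 CPM with vehicle, 1807 to 2052 CPM at 10 µM and 1659 to 1763 CPM at 50 µM, so that, like *Il33*, it was highest at 10 µM without overlap. Of the 8 macrophage markers, all had a log2 fold change above 0 at 10 µM, where 48.2% of all genes did. Past the threshold 2 rose, beside 0.410% of all genes, and for 6 the groups did not overlap, beside 6.13%. At 50 µM 2 macrophage markers rose and 1 fell against vehicle, beside 13.5% of all genes past the threshold. At 50 µM 4 of 8 neutrophil markers fell and none rose, beside 13.5% of all genes past the threshold. The neutrophil sum ranged over 15220 to 21960 CPM with vehicle, 14630 to 16920 at 10 µM and 10870 to 15440 at 50 µM. Of 8 dendritic cell markers, cells known for *Ccl17* and *Ccl22*, 4 rose at 50 µM and none fell, beside the same 13.5% of all genes. The dendritic cell sum ranged over 173 to 192 CPM, 181 to 199.5 CPM and 180 to 230 CPM, with *Xcr1* under 1 CPM in every library.

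Eosinophils and basophils carry CCR3 and ST2, and the summed levels of their markers overlapped between vehicle and 50 µM. The eosinophil sum, led by *Prg2*, was 1106 to 1353 CPM with vehicle, 929 to 1171 CPM at 10 µM and 850 to 1132 CPM at 50 µM, with 1 of 7 markers higher at 50 µM, which was *Ccr3* itself, and 2 lower. The mast cell and basophil sum, led by *Prss34*, was 429 to 516 CPM, 347 to 461 CPM and 469.5 to 577 CPM, with 1 of 8 markers higher and 1 lower. Of 8 T cell and innate lymphoid markers, *Cd3e*, *Cd3g* and *Trac* were under 1 CPM in all libraries, and the sum of 232 to 279 CPM, 229 to 246.5 CPM and 340 to 412.5 CPM was mostly *Thy1*. The B cell sum was 19.1 to 27.2 CPM, 24.2 to 34.1 CPM and 37.9 to 60.9 CPM, with 5 of 6 markers higher at 50 µM. Stroma and endothelium gave 48.9 to 64.7 CPM, 66.2 to 79.1 CPM and 48.2 to 58.8 CPM, mostly *Pecam1*, with *Col1a2*, *Pdgfra* and *Cxcl12* under 1 CPM in every library and none of 5 tested markers past the threshold at either dose against vehicle. This sum, carried by *Pecam1*, was also highest at 10 µM without overlap, as were the macrophage sum and *Il33*. These counts of markers stand beside 0.410% of all genes past the threshold at 10 µM and 13.5% at 50 µM against vehicle. The part of any of these cells in the levels of the 8 genes was not tested.

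**Figure D4:**
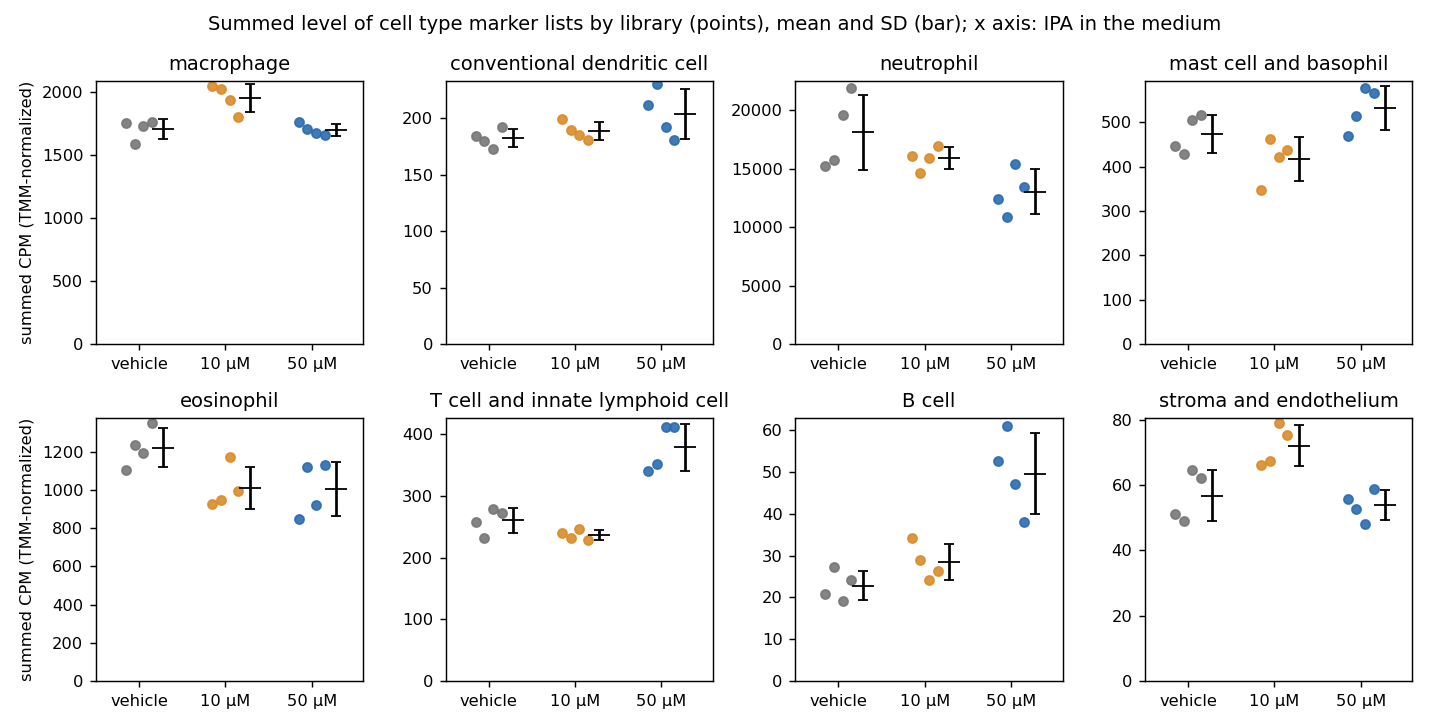
Summed CPM of 8 lists of cell type markers (y axis, linear, from 0) by group (x axis); points are libraries, 4 per group, and bars give the mean and SD. The macrophage sum (1807 to 2052 CPM) and the stroma and endothelium sum (66.2 to 79.1 CPM, mostly *Pecam1*) are highest at 10 µM. The T cell and innate lymphoid sum, mostly *Thy1*, and the B cell sum are highest at 50 µM.

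The nearest tested protein-coding genes on each side were examined to show whether the differences extended beyond the members. *Cx3cl1*, which lies between *Ccl22* and *Ccl17* and encodes fractalkine, rose at 50 µM (0.75, SE 0.13, adjusted p = 0.00240), from 9.13 to 15.2 CPM, while the outer neighbours *Arl2bp* (-0.12) and *Ciapin1* (-0.08) did not pass. *Hip1*, 24.8 kb from *Ccl24*, rose by 0.66 at 50 µM (SE 0.13, adjusted p = 0.00386), and *Rhbdd2* on the other side did not pass (0.26, adjusted p = 0.187). Beside the undetected *Ccl11*, the monocyte chemokine gene *Ccl7* rose from 5.62 to 15.2 CPM at 50 µM (1.44, SE 0.23, adjusted p = 0.00102), all 8 reduced fits included, and *Ccl12* gave 0.99 (SE 0.32, adjusted p = 0.0570). The neighbours of *Il33* (*Ranbp6* and *Uhrf2*), *Il13ra1* (*Dock11* and *Lonrf3*) and *Il1rn* (*Il1f6* and *Psd4*) passed in no comparison, nor did *Il18r1*, 0.1 kb from *Il1rl1*, on all 8 libraries.

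Among 12607 genes averaging 1 CPM or more, the pair of log2 fold changes against vehicle nearest to that of *Ccl24* belonged to *4930477G07Rik* (1.70 and 2.73), *Vsig8* (1.51 and 2.42) and *Rnase2a* (2.81 and 4.30), a ribonuclease of the eosinophil-associated family, with a larger difference of 0.59, 0.90 and 0.99. With vehicle *4930477G07Rik* was at 0.355 ± 0.263 CPM (SD, n = 4) and *Rnase2a* at 0.384 ± 0.378 (SD, n = 4). Their fold changes thus rest on low and variable vehicle levels. Nearest to *Il33* were *Igf1* (1.40 and 0.60), the collagenase *Mmp13* (1.36 and 1.02) and the chemokine *Cxcl14* (1.65 and 1.48), at 0.42, 0.45 and 0.47. Likeness was taken as the larger of the differences in the 2 fold changes over 12 libraries, and it is a description of these groups.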

How the data were processed

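The values are whole-number read counts per gene, deposited by the authors without normalization. After trimming with Atropos, reads were aligned to the mm10 genome by HISAT2 2.2.1 and assigned to Ensembl GRCm38 genes by featureCounts 2.0.1. The kit was stranded and the strand setting of the counting is not given in the sources used here. Groups and replicate numbers were read from the labels, and from the library name for the third 10 µM sample, whose title duplicates the second's. The labels give a medium change on day 3, the methods a shorter interval. Neither the labels nor the RNA sequencing methods say whether these libraries came from separate mice or cultures, so p-values measure the spread between these samples, which may be technical. No library was a copy of another.

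Genes above 0.5 CPM in at least 2 of 12 libraries (14894) were tested with edgeR 4.0.16 in R 4.3.3 (TMM, glmQLFit, glmQLFTest), each pair of groups on its 8 libraries, with Benjamini-Hochberg adjustment over all genes and a threshold of 0.05. The script was tested on simulated data. Alternatives were DESeq2 1.42.0, its size factors in edgeR, other filters, all 12 libraries in 1 fit, a replicate block and leaving out each library. Coordinates and exon lengths are from GENCODE M21 (GRCm38). Intervals and floors cover counting error only. The members and lists were chosen with earlier results of these data known. Named were the members, per list and comparison the genes past the threshold (the 4 largest changes where more passed), the nearest tested neighbours, the 3 genes nearest to *Ccl24* and to *Il33*, and the most abundant marker of each list. Besides the counted genes that this rule leaves unnamed, a gene of the list induced by IL-4 entered the counts and is not reported here.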

Additional observations from a re-analysis of the deposited data

Results flagged for a closer look

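Among 99 groups of 4 libraries, for the members and the named pathway genes, a library stood apart from the other 3 of its group in 6, while chance alone gives about 1 in 20. None concerned 1 of the 8 genes of the report. At 50 µM, *Il1rap* was at 60.3 CPM in replicate 1 and at 55.5 to 56.0 CPM in the others, *Il1r1* was at 6.35 CPM in replicate 1 and at 3.50 to 3.95 CPM in the others, *Il1r2* was at 417.5 CPM in replicate 3 against 332 to 337 CPM, and *Irs2* at 25.1 CPM in replicate 3 against 28.65 to 29.3 CPM. *Il1f9* was at 52.7 CPM in replicate 4 of vehicle and at 61.0 to 62.6 CPM in the others. *Il4ra* was at 316.5 CPM in replicate 2 of the 10 µM group and at 326 to 327 CPM in the others.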

How the results depend on the processing

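At 10 µM against vehicle the number of genes past the threshold depended on the setting. Of all genes 61 passed with edgeR, 250 with DESeq2 (197 higher and 53 lower), 150 with no filter and 118 with all 12 libraries in 1 fit, and 4 to 122 with 1 library left out: 10, 20, 37 and 122 without replicate 1, 2, 3 or 4 of vehicle and 25, 4, 12 and 26 without replicate 1, 2, 3 or 4 at 10 µM. Of the members 2 passed with edgeR and with DESeq2 and 0 to 3 with 1 library left out (1 without replicate 1, 2 or 3 of vehicle or replicate 3 at 10 µM, 0 without replicate 2 at 10 µM). The pathway genes gave 6, and 1 to 6 (1 without replicate 2 at 10 µM, 3 without replicate 3 of vehicle, 2 without replicate 1 or 2 of vehicle or 1, 3 or 4 at 10 µM). At 50 µM the 25 pathway genes became 15 to 27 (15 without replicate 2 at 50 µM), and the 2010 of all genes 1248 to 2689 (1248 without replicate 3 of vehicle, 1313 without replicate 2 at 50 µM). Members numbered 4 to 6 at 50 µM and between the doses when 1 library was left out. With the replicate block, 3 of all genes, 0 of the members and 2 of the pathway genes passed at 10 µM. Among the members the block ended the calls of *Ccl24* and *Il33* at 10 µM and of *Il33* at 50 µM and added that of *Ccl17* between the doses. The numbers do not pair the libraries: the correlation of deviations within a number was between -0.242 and 0.142, and 1, 2 and 4 of the 8 libraries correlated best with their own number in the 3 comparisons. No called fold change reversed under these settings. Those of the members moved by less than the spread between replicates, although some of their calls changed, and over the other named genes 132 values no longer passed. With all 12 libraries in the fit, *Clec10a* at 10 µM, *Il13* at 50 µM and *Fcer2a* between the doses were among those lost. The cause of these differences was not tested.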
